A study of Mus musculus with 38 samples.

Results

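The genes described here are 38 mouse genes of lysosomal acidification, lysosomal membrane and lysosomal digestion, measured by RNA sequencing in sorted lung macrophages. They were taken by name from a fixed list after the Ensembl gene identifiers of the count table had been mapped to symbols, and cathepsins were not on that list. All 38 were found among the 43346 gene identifiers of the table, and all 38 passed the filter on low counts that left 14095 genes for testing. By role the list holds 8 genes of the V1 sector and 6 of the V0 sector of the proton pump, 2 accessory pump subunits, 4 membrane genes, 3 transcription factors of the MiT/TFE family, 7 glycosidases, 4 genes of sphingolipid breakdown, 2 proteases and 2 lysozymes.

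The lysosome is the acidic compartment in which macrophages digest what they take up. Its acidity comes from the vacuolar proton ATPase: the V1 sector, in the cytosol, hydrolyses ATP, and the V0 sector, in the membrane, lets protons through. The hydrolases inside need that acidity, and TFEB, TFE3 and MITF are transcription factors known to activate many of these genes through a promoter element called CLEAR. In the lung, alveolar macrophages live in the airspace and clear surfactant, and interstitial macrophages live in the tissue around the airways and vessels.

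All cells came from the lungs of naive C57Bl/6 mice aged 8 to 10 weeks. All samples were digested with Liberase, the RNA input was 2 ng and the RNA integrity number was 9.2 to 10.0. Interstitial macrophages were sorted as CD64+ CD11b+ cells after enrichment for MerTK, with Siglec F+, CD24+, CD43+, Ly6G+ and lymphoid cells gated out, and were split by their surface levels of MHC class II and of the mannose receptor CD206. IM1 was MHC class II low and CD206 high, IM2 was high for both, and IM3 was MHC class II high and CD206 low. Alveolar macrophages (AM) were sorted through another gate, as CD11c+ Siglec F+ cells lacking CD11b, CD103 and Gr1. Each population had 3 libraries, called replicates A, B and C, and nothing in the labels says whether these came from separate mice, so the spread behind each p-value is that between these libraries and may be technical. RNA was taken from about 50000 cells per sort, so fewer cells that use a gene and less RNA per cell cannot be told apart.

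The libraries held 11818981 to 15758326 reads assigned to genes, and levels are given as TMM-scaled CPM, reads scaled to library size, on which 3 reads correspond to 0.19 to 0.254. The 12 alveolar macrophage markers summed to 56.4 to 275 CPM in the 9 interstitial libraries and 52380 to 59290 in AM. The 12 interstitial markers summed to 17340 to 48670 in interstitial libraries and 34.3 to 37.3 in AM. These sums separated AM from interstitial libraries as labelled, but the lists were chosen with earlier results of these data known. Neither list checks the split into IM1, IM2 and IM3. Markers of other cells were also unequal. Monocyte markers summed to 1133 to 3308 CPM in interstitial libraries and 12.5 to 16.7 in AM, endothelial markers to 31.02 to 67.5 and 0.0 to 0.0737, stromal markers to 34.95 to 113.6 and 0.0 to 0.35, and B cell markers to 35.4 to 74.9 and 0.0737 to 1.54, each with the interstitial libraries first. Neutrophil markers summed to 57.7 to 93.8 CPM in interstitial libraries and 145.2 to 176.2 in AM. Only 3 of these 8 markers passed the filter, and 2 were lower in interstitial macrophages and 1 was not called. S100a9, Ngp and Camp had 0 counts in every AM library. The sum of the epithelial markers was also larger in AM (9.61 to 63.2 CPM in interstitial libraries and 155.5 to 177.7 in AM), but 6 of these 8 markers were called higher in interstitial macrophages and 2 lower. Dendritic cell markers summed to 280 to 502 CPM in interstitial libraries and 166 to 189 in AM. Plac8 among the monocyte markers had 0 counts in every AM library, as had 5 of 6 endothelial and 5 of 7 stromal markers. The part of other cells in the results below was not tested. IM1 replicate A stood apart. Its counts differed from those of IM1 replicates B and C by a chi-square per degree of freedom of 84.1 and 65.5, against 20.2 between B and C, and its level relative to theirs fell with gene length. Over the 7 listed genes with under 1500 counted bases the median log2 ratio was 0.70, over the 8 with more than 5000 bases it was -0.19, and over all tested genes of these sizes it was 0.48 and -0.28. The main counts are therefore also given without this library.

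Promoters are shown first because the CLEAR element is the site through which the listed transcription factors are known to act. RefSeq promoters, from 250 bases before to 50 bases after a start, were matched by symbol for 32 of the 38 genes (41 promoters, build GRCm38.p6). The letters TCACGTGA, the middle of the CLEAR element, read the same on both strands and contain the shorter E-box CACGTG. They stood in 5 of these 41 promoters (12.2%) and in 320 of all 32851 promoters (0.97%). CACGTG stood in 11 of the 41 (26.8%) and in 2349 of all promoters (7.15%). A match of letters is a description and shows no binding. The windows of 60 bases below hold the 5 genes with TCACGTGA, in capitals, 5′ to 3′ along the gene. Gla (chrX:134601184-134601243, minus strand) holds it at -228 and -195 from its start, Atp6v0d1 (chr8:105566035-105566094, minus strand) at -4, Atp6v0e (chr17:26676366-26676425, plus strand) at 2, Atp6v1a (chr16:44139358-44139417, minus strand) at -132 and Mcoln1 (chr8:3500447-3500506, plus strand) at -46.
Gla: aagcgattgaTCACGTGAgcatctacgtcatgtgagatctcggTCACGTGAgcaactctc
Atp6v0d1: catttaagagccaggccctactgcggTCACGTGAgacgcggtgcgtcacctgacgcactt
Atp6v0e: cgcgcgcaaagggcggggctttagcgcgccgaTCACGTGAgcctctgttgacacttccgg
Atp6v1a: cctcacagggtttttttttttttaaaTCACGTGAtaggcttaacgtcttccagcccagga
Mcoln1: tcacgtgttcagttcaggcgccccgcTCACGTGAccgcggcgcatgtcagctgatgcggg

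The first comparison asked how the lysosomal genes of interstitial macrophages differ from those of AM. Interstitial macrophages had less transcript of most proton pump genes and of both lysozymes, and more of the cysteine protease legumain, the tetraspanin Cd63 and the transcription factor Tfe3. In edgeR's quasi-likelihood test of the mean of IM1, IM2 and IM3 against AM, 5 of the 38 genes rose and 25 fell at an adjusted p under 0.05, and 8 were not called. Among all tested genes 64.6% were called, 35.9% rose and 28.7% fell, so the share that rose was below, and the share that fell above, that of genes at large. The median log2 fold change was -0.52 over the 38 genes and 0.10 over all genes. The 38 genes took 2.785% to 3.395% of assigned reads in interstitial libraries and 5.606% to 6.58% in AM. Much of this gap lay in the lysozymes. In TPM, a level scaled by gene length, all 38 genes summed to 38570 to 51290 in interstitial libraries and 85310 to 101400 in AM. The 36 genes without the lysozymes summed to 14430 to 19010 in interstitial libraries and 21790 to 22740 in AM. Much of the remaining gap lay in Psap, with a mean TPM of 3940 in interstitial libraries and 6991 in AM, and in Atp6v0d2, with 22.3 and 1675. By library, 5 genes lay above AM in all 9 interstitial libraries and 19 below it, where 26.5% and 22.2% of all tested genes did. Without IM1 replicate A, 7 of the 38 rose and 25 fell.

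**Figure D1:**
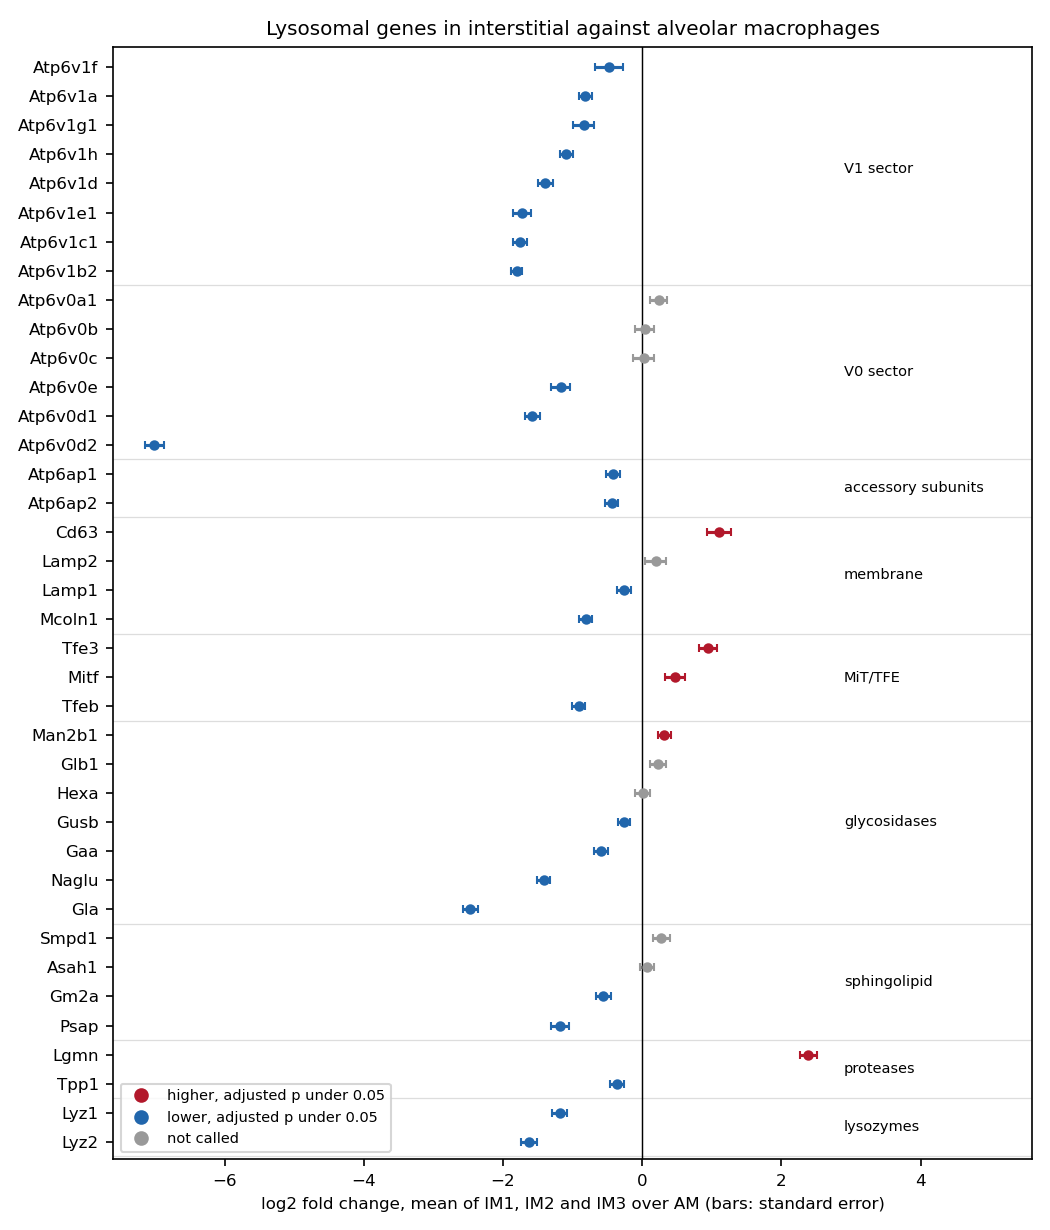
Log2 fold change of the mean of IM1, IM2 and IM3 over AM for the 38 genes, grouped by role, with bars for the standard error of the edgeR fit (9 interstitial and 3 AM libraries), in red where higher, blue where lower and grey where not called. All 8 V1 genes lie left of zero, Atp6v0d2 lies farthest left at -7.01 and Lgmn farthest right at 2.39.

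Taken population by population, the comparisons share the same 3 AM libraries and are given side by side. In IM1, 8 of the 38 genes rose and 21 fell against AM, where 58.8% of all tested genes were called, 33.1% higher and 25.7% lower. In IM2, 7 rose and 23 fell, beside 34.3% and 26.2% of all tested genes, 60.5% in all. In IM3, 5 rose and 23 fell, beside 32.4% and 25%, 57.4% in all. The median log2 fold change of the 38 genes was -0.38 in IM1, -0.55 in IM2 and -0.56 in IM3, beside 0.12, 0.11 and 0.09 over all genes. Without IM1 replicate A, 9 rose and 22 fell in IM1.

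The V1 sector, which hydrolyses ATP, was lower in interstitial macrophages as a group: 8 of 8 genes fell, with a median log2 fold change of -1.24. Atp6v1b2, the B subunit that takes part in binding ATP, fell the most. It stood at 391, 414 and 439 CPM in the IM1 libraries, 373, 405 and 399 in IM2 and 400, 389 and 402 in IM3, against 1443, 1439 and 1324 in AM. The 9 interstitial libraries lay close together and far below AM, with a log2 fold change of -1.81 ± 0.08 (SE, adjusted p = 1.31e-11). The other isoform of this subunit, Atp6v1b1, had 0 counts in IM1, IM3 and AM and made up 0.0952% of the summed length-scaled level (TPM) in its only library with reads, IM2 replicate B. The log2 fold changes of Atp6v1c1, which joins the sectors, and of Atp6v1e1, a stalk subunit, were -1.76 and -1.73. Those of Atp6v1d, in the central stalk, and of Atp6v1h, a regulatory subunit, were -1.39 and -1.09, and those of Atp6v1g1, another stalk subunit, and Atp6v1a, the catalytic A subunit, were -0.84 and -0.82.

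Atp6v1f, a small subunit of the central stalk, fell the least in the V1 sector. It stood at 174, 80.3 and 78.4 CPM in IM1, 99.0, 61.9 and 73.9 in IM2 and 71.4, 74.2 and 61.3 in IM3, against 119, 111 and 123 in AM. IM1 replicate A alone lay above AM, and the other 8 interstitial libraries lay below it. The log2 fold change was -0.48 ± 0.20 (SE, adjusted p = 0.0451), and the adjusted p reached up to 0.119 over 18 alternatives, of which 11 ended the call. Against AM, IM1 gave -0.09 (adjusted p = 0.786) with all libraries and -0.57 (adjusted p = 0.00435) without replicate A. This gene and Atp6v1g1 are short, and 11.2% and 19.2% of their stretches of 50 bases also occur in other annotated genes, so part of their reads could not be placed.

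In the V0 sector, which carries the protons, 3 of 6 genes fell and 3 were not called, beside 28.7% of all tested genes that fell. The largest difference of all 38 genes was in Atp6v0d2, an isoform of the d subunit known from osteoclasts and fusing macrophages (mm10 chromosome 4, 19876841 to 19922605). It stood at 36.4, 51.1 and 41 CPM in IM1, 23.7, 16.3 and 20.1 in IM2 and 4.10, 5.28 and 3.18 in IM3, against 2012, 2043 and 1879 in AM. The 4 populations did not overlap, in the order AM, IM1, IM2, IM3. The log2 fold change of the interstitial mean was -7.01 ± 0.14 (SE, adjusted p = 2.88e-15), and it was -5.53 for IM1, -6.62 for IM2 and -8.88 for IM3. Relative to the AM mean, the level of Atp6v0d2 in the IM1 libraries was 1.84% to 2.59%, in the IM2 libraries 0.826% to 1.2% and in the IM3 libraries 0.161% to 0.267%. On the same scale the summed alveolar macrophage markers lay at 0.275% to 0.494% for IM1, at 0.101% to 0.258% for IM2 and at 0.109% to 0.129% for IM3, and their part in this result was not tested.

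Atp6v0d1, the d subunit isoform found in most tissues, fell by 1.58 ± 0.11 on the log2 scale (adjusted p = 3.9e-09), with 74.6 to 125 CPM in interstitial libraries and 307 to 333 in AM. The main isoform thus differed. Of the summed TPM of both, Atp6v0d2 made up 22.6% to 24.4% for IM1, 9.31% to 11.1% for IM2 and 1.92% to 2.81% for IM3, against 80.0% to 81.2% in AM. The mean TPM of Atp6v0d1 was 143, 177 and 162 in IM1, IM2 and IM3 and 407 in AM, while that of Atp6v0d2 was 42.9, 19.96 and 4.07 in the same interstitial populations and 1675 in AM. Atp6v0e, a small membrane subunit, fell by 1.17 ± 0.14.

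Atp6v0a1, an isoform of the large a subunit, had the highest fold change of the V0 sector. It stood at 116, 195 and 164 CPM in IM1, 176, 194 and 194 in IM2 and 123, 124 and 131 in IM3, against 134, 126 and 135 in AM. IM2 lay above AM in all 3 libraries, IM3 and AM overlapped, and IM1 lay on both sides. The interstitial mean was not called (0.24 ± 0.12, adjusted p = 0.105), while IM2 against AM was (0.52 ± 0.15, adjusted p = 0.00777). Without IM1 replicate A, IM1 against AM was called too, at 0.44 (adjusted p = 0.00228). Atp6v0b and Atp6v0c, of the ring that turns in the membrane, gave 0.04 ± 0.13 and 0.02 ± 0.15 and were not called. Of their stretches of 50 bases, 8.6% and 10.8% also occur in other annotated genes, so part of the reads of both genes could not be placed. The levels of Atp6v0b and Atp6v0c ranged over 214 to 448 and 25.3 to 41.3 CPM in interstitial libraries and over 261 to 282 and 28.4 to 35.8 in AM.

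Both accessory subunits fell by a small step. Atp6ap1, a glycoprotein of the pump's assembly, stood at 766, 738 and 884 CPM in IM1, 619, 719 and 754 in IM2 and 686, 782 and 747 in IM3, against 933, 1104 and 951 in AM. Its log2 fold change was -0.42 ± 0.10 (adjusted p = 0.00153). Atp6ap2, the prorenin receptor, stood at 367, 371 and 439 CPM in IM1, 356, 356 and 395 in IM2 and 368, 422 and 425 in IM3, against 509, 577 and 494 in AM. All 9 interstitial libraries lay below AM for both genes, and the fold change of Atp6ap2 was -0.44 ± 0.10 (adjusted p = 9e-04).

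**Figure D2:**
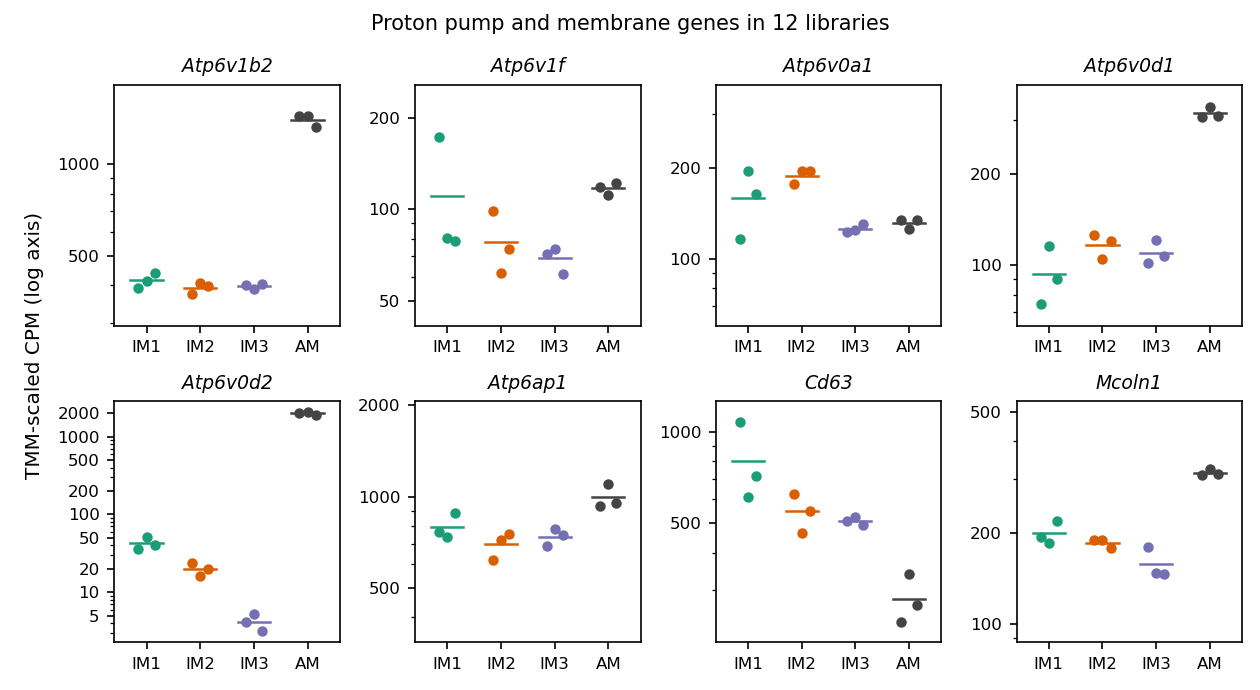
TMM-scaled CPM on a log axis for 8 pump and membrane genes, with a point per library (replicates A, B and C from left to right) and a line at the mean of 3 libraries. Atp6v0d2 separates all 4 populations, and IM1 replicate A stands above the other IM1 libraries for Atp6v1f and Cd63.

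Of the 10 other pump subunit genes on a further list, 5 passed the filter, 1 rose and 2 fell in the interstitial mean. The genes Atp6v1e2, Atp6v1g3 and Atp6ap1l had 0 counts in all 12 libraries, and Atp6v0a4 and Atp6v1b1 had 0 counts in IM1, IM3 and AM. Tcirg1 and Atp6v0a2, the other isoforms of the a subunit, fell by 0.47 ± 0.14 and 0.56 ± 0.15 on the log2 scale. For Tcirg1 this came with 142, 237 and 153 CPM in IM1, 294, 241 and 245 in IM2 and 353, 350 and 288 in IM3, against 342, 322 and 362 in AM. IM1 and IM2 lay below AM and IM3 overlapped with it. Per length, Tcirg1 was the main a subunit in every library, with 46.3% to 61.9% of the summed TPM of the 4 a subunit genes in interstitial libraries and 58.2% to 61.3% in AM. Atp6v0e2, the only one that rose, stayed at 0.602 to 1.72 CPM in interstitial libraries and 0.35 to 0.842 in AM.

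The membrane genes moved apart. Cd63, a tetraspanin of late endosomes and lysosomes, rose. It stood at 1080, 609 and 718 CPM in IM1, 626, 463 and 550 in IM2 and 507, 523 and 492 in IM3, against 237, 341 and 268 in AM. Every interstitial library lay above every AM library, and the log2 fold change was 1.104 ± 0.17 (adjusted p = 2.89e-05). Of the stretches of 50 bases in Cd63, 11.1% also occur in other annotated genes. Mcoln1, the calcium channel TRPML1, fell. It stood at 194, 184 and 219 CPM in IM1, 190, 190 and 178 in IM2 and 179, 148 and 146 in IM3, against 309, 324 and 313 in AM, with a fold change of -0.81 ± 0.09 (adjusted p = 1.15e-06). Its range in interstitial macrophages was narrow and ended well below AM.

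Lamp1 and Lamp2, the abundant glycoproteins that line the lysosomal membrane, differed little. Lamp1 ranged over 1267 to 2177 CPM in interstitial libraries and 1864 to 2063 in AM, and fell by 0.27 ± 0.10 (adjusted p = 0.0275, lost in 5 of 18 alternatives with up to 0.128). Lamp2 ranged over 797 to 1376 CPM in interstitial libraries and 844 to 1031 in AM and was not called (0.19 ± 0.15, adjusted p = 0.272). The 2 groups overlapped for both genes.

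The MiT/TFE transcription factors split. Tfe3 stood at 140, 199 and 218 CPM in IM1, 190, 213 and 234 in IM2 and 166, 154 and 175 in IM3, against 95.8, 91.9 and 104 in AM, and rose by 0.94 ± 0.13 on the log2 scale (adjusted p = 9.74e-06). Tfeb stood at 47.1, 55.3 and 55.5 CPM in IM1, 67.9, 61.2 and 67.5 in IM2 and 84.9, 80.2 and 88.2 in IM3, against 115, 129 and 131 in AM, and fell by 0.91 ± 0.09 (adjusted p = 2.94e-07). No interstitial library overlapped with AM for either gene, and the Tfeb levels of the 4 populations did not overlap with each other. Mitf, the third member, rose by 0.47 ± 0.15 (adjusted p = 0.0107), with 32.1 to 48.0 CPM in interstitial libraries and 26.9 to 31.96 in AM. Its call was lost without AM replicate A or B (adjusted p = 0.0526 and 0.0618).

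The fourth gene of this family, Tfec, known from the macrophage lineage, stood on the list of nutrient sensing genes. It fell by 2.95 ± 0.17 (adjusted p = 2.85e-10), with 26.9, 17.97 and 22.5 CPM in IM1, 11.8, 12.3 and 14.4 in IM2 and 3.84, 1.32 and 2.91 in IM3, against 73.1, 70.2 and 70.1 in AM. As for Atp6v0d2, the order without overlap was AM, IM1, IM2, IM3. Per length, Tfec made up 20.9% to 33.2% of the family's summed TPM for IM1, 14.2% to 16% for IM2 and 1.92% to 5.13% for IM3, against 50% to 53.9% in AM. The part of Tfe3 was 33.2% to 50.1% in interstitial libraries and 13% to 14.2% in AM. These shares rest on the counted gene lengths, 1779 bases for Tfec and 9261 for Tfe3. IM1 replicate A, in which short genes stood higher, gave both the 33.2% of Tfec and the 33.2% of Tfe3. IM1 replicates B and C gave 20.9% and 24.7% for Tfec and 44.5% and 46.0% for Tfe3. From CPM without length the share was smaller in every population and kept that order.

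**Figure D3:**
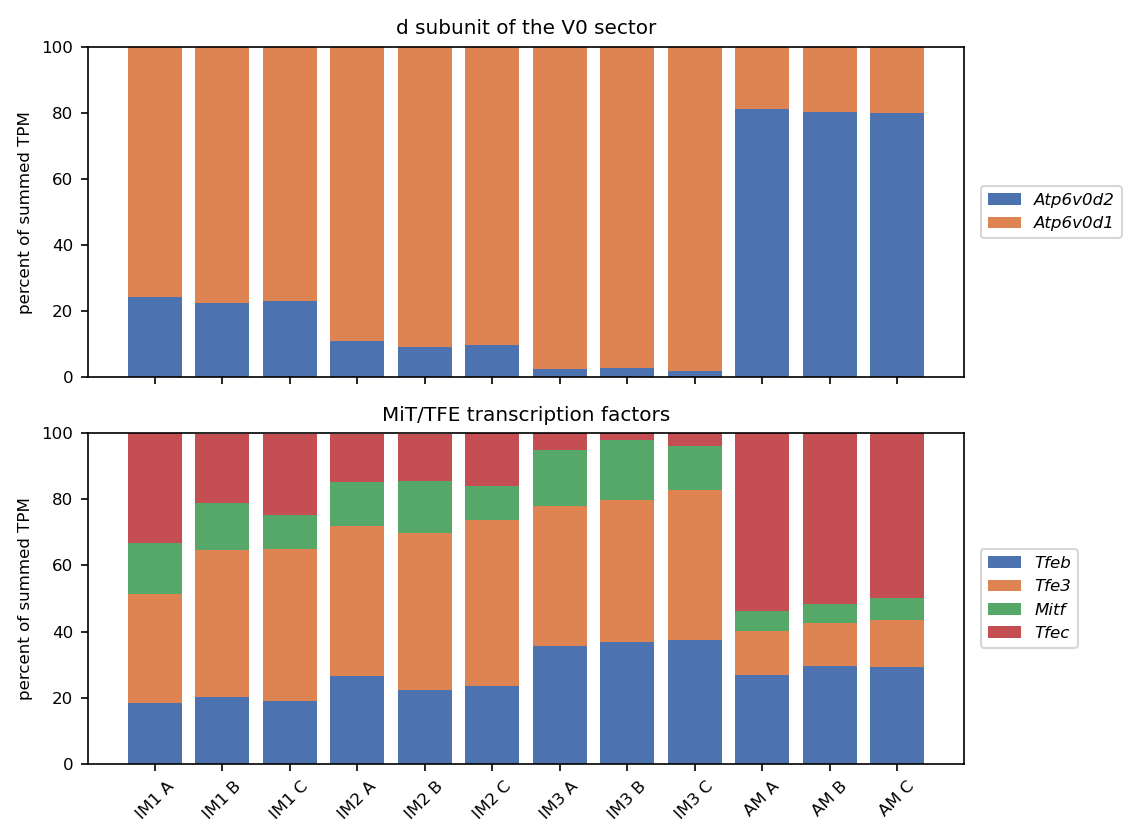
Percent of summed TPM by library for the d subunit isoforms Atp6v0d2 and Atp6v0d1 (upper) and for the MiT/TFE genes Tfeb, Tfe3, Mitf and Tfec (lower). Atp6v0d2 holds 80.0% to 81.2% in AM and at most 24.4% in any interstitial library, and Tfec is smallest in IM3.

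Among the genes with the CLEAR core in the promoter, printed above, Gla, Atp6v0d1, Atp6v0e, Atp6v1a and Mcoln1 all fell in the interstitial mean, with log2 fold changes of -2.47 to -0.81. Of the 27 listed genes whose promoters lack these letters, 15 fell and 5 rose. Atp6v1b2, Atp6v1c1, Atp6v1g1, Atp6v1h, Atp6v0d2 and Asah1 had no matched promoter and are in neither group. Asah1 was not called and the others of these fell. Among all tested genes 28.7% fell and 35.9% rose, and calls were not counted over all genes that hold these letters. The median log2 fold change was -1.17 over the 5 genes and -0.27 over the 27. These are descriptions, since 5 genes are few. Tfeb and Tfec fell while Tfe3 and Mitf rose, and the part of these factors in the result was not tested.

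The glycosidases, which take sugars off glycoproteins, glycolipids and glycogen, ranged widely: 1 of 7 rose and 4 fell, beside 35.9% and 28.7% of all tested genes. Gla, alpha-galactosidase A, fell the most. It stood at 15.4, 22.8 and 18.5 CPM in IM1, 17.8, 15.99 and 18.2 in IM2 and 15.8, 17.01 and 18.8 in IM3, against 89.7, 108 and 98.0 in AM. The interstitial populations were alike and all lay far below AM, with a log2 fold change of -2.47 ± 0.11 (adjusted p = 1.88e-11). Man2b1, the lysosomal alpha-mannosidase, was the only one that rose. It stood at 1033, 1183 and 1231 CPM in IM1, 1070, 1145 and 1187 in IM2 and 1109, 1107 and 1146 in IM3, against 925, 917 and 889 in AM, with a fold change of 0.32 ± 0.09 (adjusted p = 0.00593). Every interstitial library lay above AM.

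Naglu, a glucosaminidase of heparan sulfate breakdown, fell by 1.42 ± 0.09 (165 to 231 CPM in interstitial libraries, 464 to 569 in AM). Gaa, the acid glucosidase that digests glycogen, fell by 0.59 ± 0.10 (148 to 277 CPM in interstitial libraries, 303 to 329 in AM). Gusb, the glucuronidase, fell by 0.26 ± 0.09 (489 to 593 CPM in interstitial libraries, 619 to 690 in AM), a call that was lost without AM replicate A or C (adjusted p = 0.0817 and 0.0547) and without the filter on low counts (0.0814). All 3 lay below AM in every interstitial library. Glb1, the beta-galactosidase, and Hexa, the alpha subunit of beta-hexosaminidase, were not called for the interstitial mean (0.23 ± 0.11 and 0.01 ± 0.11). Hexa lay above AM in all IM1 libraries and below it in all IM3 libraries (0.38 and -0.38, adjusted p = 0.0188 and 0.0202). The first of these calls was lost without AM replicate A or C (adjusted p up to 0.0631), and the second without IM3 replicate A or C or AM replicate B or C (up to 0.0603). Glb1 rose in IM1 against AM (0.65, adjusted p = 0.000702) and overlapped with AM in IM3.

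In sphingolipid breakdown, Psap and Gm2a, 2 of 4 genes, fell in the interstitial mean and none rose, beside 28.7% and 35.9% of all tested genes. In IM1 and in IM2 against AM, 1 rose and 2 fell, and in IM3 none was called. Psap, the precursor of the saposins that present lipids to the hydrolases, stood at 1832, 2719 and 2037 CPM in IM1, 3545, 3579 and 3656 in IM2 and 5650, 8287 and 5022 in IM3, against 8156, 8914 and 7969 in AM. IM1 and IM2 lay far below AM, and IM3 replicate B reached the AM range. The log2 fold change of the interstitial mean was -1.18 ± 0.14 (adjusted p = 1.32e-06), and by population it was -1.93 in IM1, -1.22 in IM2 and -0.40 in IM3. IM3 against AM was not called (adjusted p = 0.0618), and without IM3 replicate B it was -0.65 (adjusted p = 0.00433). Over all 19 alternatives the adjusted p of IM3 against AM ranged from 0.00433 to 0.251.

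Gm2a, the activator that lifts GM2 ganglioside out of the membrane for hexosaminidase, stood at 261, 222 and 276 CPM in IM1, 287, 373 and 344 in IM2 and 643, 740 and 773 in IM3, against 556, 634 and 546 in AM. IM1 and IM2 lay below AM and IM3 above it. The log2 fold change of the interstitial mean was -0.56, a mean over populations on both sides of AM. The fold change was -1.19 in IM1 and -0.79 in IM2 (adjusted p = 1.71e-06 and 0.000115), while IM3 was not called (0.31, adjusted p = 0.0584, with a range of 0.00567 to 0.192 over 19 alternatives). Smpd1, the acid sphingomyelinase, stood at 60.4, 68.3 and 79.9 CPM in IM1, 49.5, 51.6 and 70.1 in IM2 and 33.6, 38.4 and 40.3 in IM3, against 41.8, 46.0 and 43.5 in AM. IM1 and IM2 lay above AM and IM3 below it. IM1 and IM2 rose against AM (0.67 and 0.38, adjusted p = 0.00154 and 0.0419), and the interstitial mean was not called (0.28 ± 0.13, adjusted p = 0.0706). The IM2 call was lost in 6 of 19 alternatives, such as without IM2 replicate C (0.21, adjusted p = 0.254). Asah1, the acid ceramidase, was at 814 to 1087 CPM in interstitial libraries and 878 to 899 in AM and was not called.

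Lgmn, the asparagine-specific protease legumain, rose the most of all 38 genes. It stood at 837, 1132 and 924 CPM in IM1, 1034, 880 and 1050 in IM2 and 822, 842 and 750 in IM3, against 178, 188 and 159 in AM. All 9 interstitial libraries lay far above AM, with a log2 fold change of 2.39 ± 0.13 (adjusted p = 1.26e-10). Tpp1, a tripeptidyl peptidase, stood at 642, 655 and 799 CPM in IM1, 531, 565 and 663 in IM2 and 429, 442 and 464 in IM3, against 709, 781 and 700 in AM. It fell in the interstitial mean by 0.37 ± 0.10 (adjusted p = 0.00469), with IM1 overlapping AM and IM3 lowest.

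Lyz2, the lysozyme of myeloid cells, was the most abundant of the 38 genes. It stood at 16160, 11390 and 14570 CPM in IM1, 14410, 11210 and 13890 in IM2 and 10500, 11210 and 9920 in IM3, against 34010, 44460 and 37510 in AM, a log2 fold change of -1.63 ± 0.11 (adjusted p = 3.22e-09). Lyz1, known from Paneth cells, stood at 149, 117 and 141 CPM in IM1, 186, 152 and 161 in IM2 and 120, 145 and 129 in IM3, against 284, 345 and 352 in AM, a fold change of -1.19 ± 0.10 (adjusted p = 6.05e-08). Both lay below AM in all 9 libraries. The genes are neighbours on mm10 chromosome 10 with 5475 bases between them. Their coding sequences are 447 bases long and 95.1% identical, and 16.1% of the stretches of 50 bases in Lyz1 also occur in Lyz2. Lyz1 made up 0.916% to 1.34% of their summed TPM in interstitial libraries and 0.77% to 0.93% in AM, so its counts are uncertain: reads of Lyz2 placed on it cannot be told apart from its own. The coding bases 37 to 156 show where reads can be told apart, with the 14 differing bases in capitals (GENCODE M21).
Lyz1: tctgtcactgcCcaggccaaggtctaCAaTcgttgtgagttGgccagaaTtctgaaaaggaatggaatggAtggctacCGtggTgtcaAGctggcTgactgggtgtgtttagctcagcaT
Lyz2: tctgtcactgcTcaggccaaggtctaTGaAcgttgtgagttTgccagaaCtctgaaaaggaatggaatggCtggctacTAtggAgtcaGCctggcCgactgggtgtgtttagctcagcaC

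**Figure D4:**
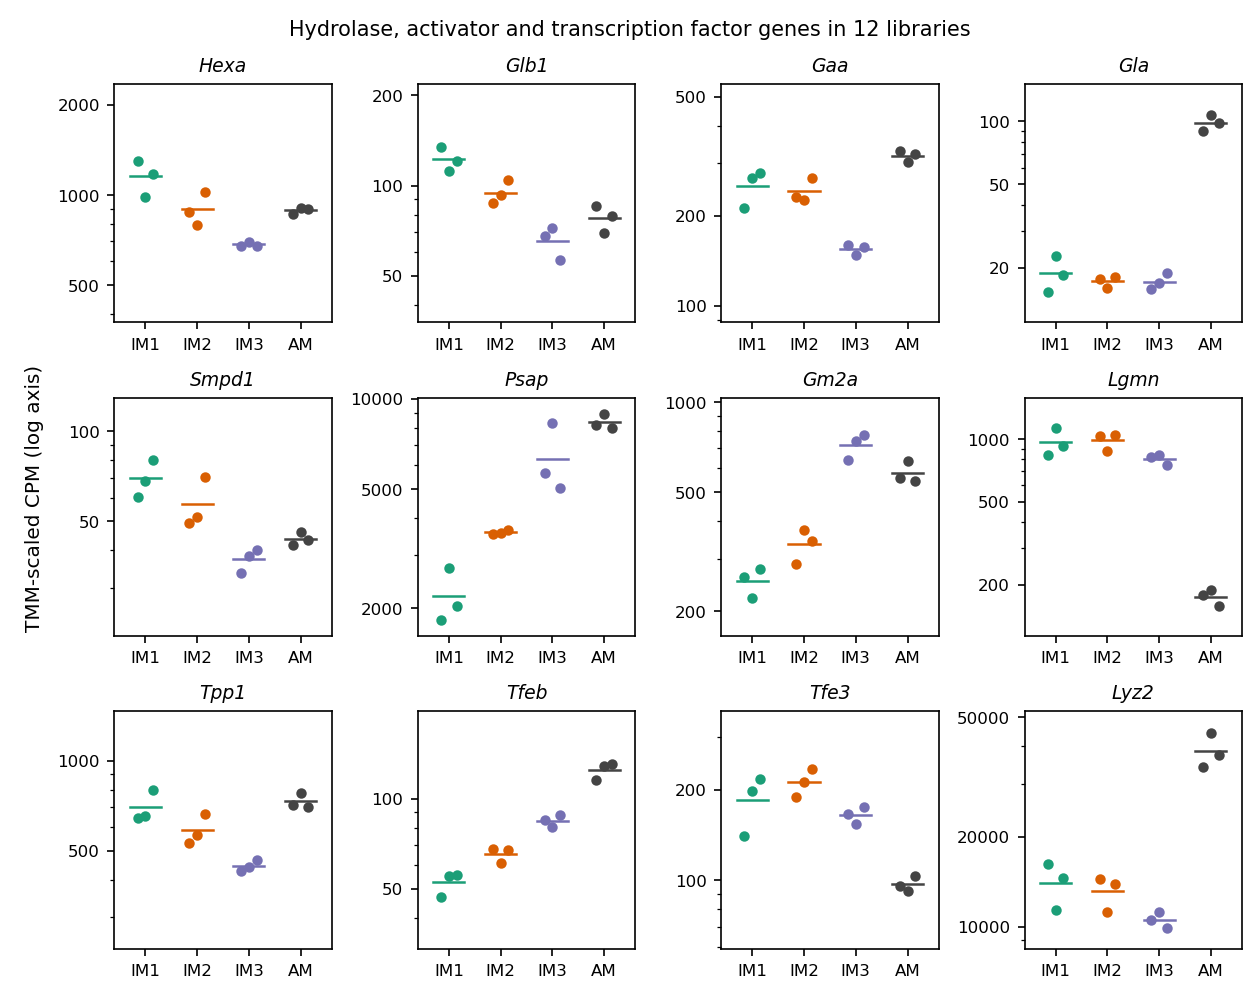
TMM-scaled CPM on a log axis for 12 hydrolase, activator and transcription factor genes, with a point per library (replicates A, B and C from left to right) and a line at the mean of 3 libraries. Hexa, Glb1, Gaa, Smpd1 and Tpp1 step down and Psap, Gm2a and Tfeb step up over IM1, IM2 and IM3.

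The second question of the design was how the interstitial populations differ among themselves. IM1 and IM3 lay farthest apart: 13 of the 38 genes were higher in IM1 and 3 lower, beside 12.7% and 11.7% of all tested genes (24.4% in all), and the median log2 fold change was 0.28 against 0.02 over all genes. Between IM2 and IM3, 6 were higher in IM2 and 2 lower, beside 6.49% and 4.94% (11.4% in all). Between IM1 and IM2, 1 was higher in IM1 and 0 were lower, beside 0.49% and 1.22% (1.71% in all). At an unadjusted p under 0.05, 9 were higher and 5 lower, beside 8.13% and 9.41% of all tested genes. DESeq2 called 2 higher and 1 lower, beside 1.61% and 2.67% of its genes. With the replicate letters as a block over all libraries, AM included, 1 gene, Psap, was lower in IM1 (-0.74, adjusted p = 0.0103). Without IM1 replicate A the counts were 16 higher and 3 lower for IM1 against IM3, and 1 and 0 for IM1 against IM2. Without IM1 replicate B, 7 were higher and 2 lower in IM1 against IM2. Marker lists also moved between IM1 and IM3. Dendritic cell markers summed to 280 to 319 CPM in IM1 and 473 to 502 in IM3. Of 6 tested, 1 was higher and 4 were lower in IM1. Monocyte markers summed to 2233 to 3308 CPM in IM1 and 1133 to 1361 in IM3. Of 5 tested, however, 1 was higher and 1 lower in IM1, with a median log2 fold change of -0.49. Of the 12 alveolar macrophage markers, 8 were higher and 2 lower in IM1 (153 to 275 CPM in IM1 and 60.4 to 71.5 in IM3). The part of these cells in the differences between IM1 and IM3 was not tested.

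**Figure D5:**
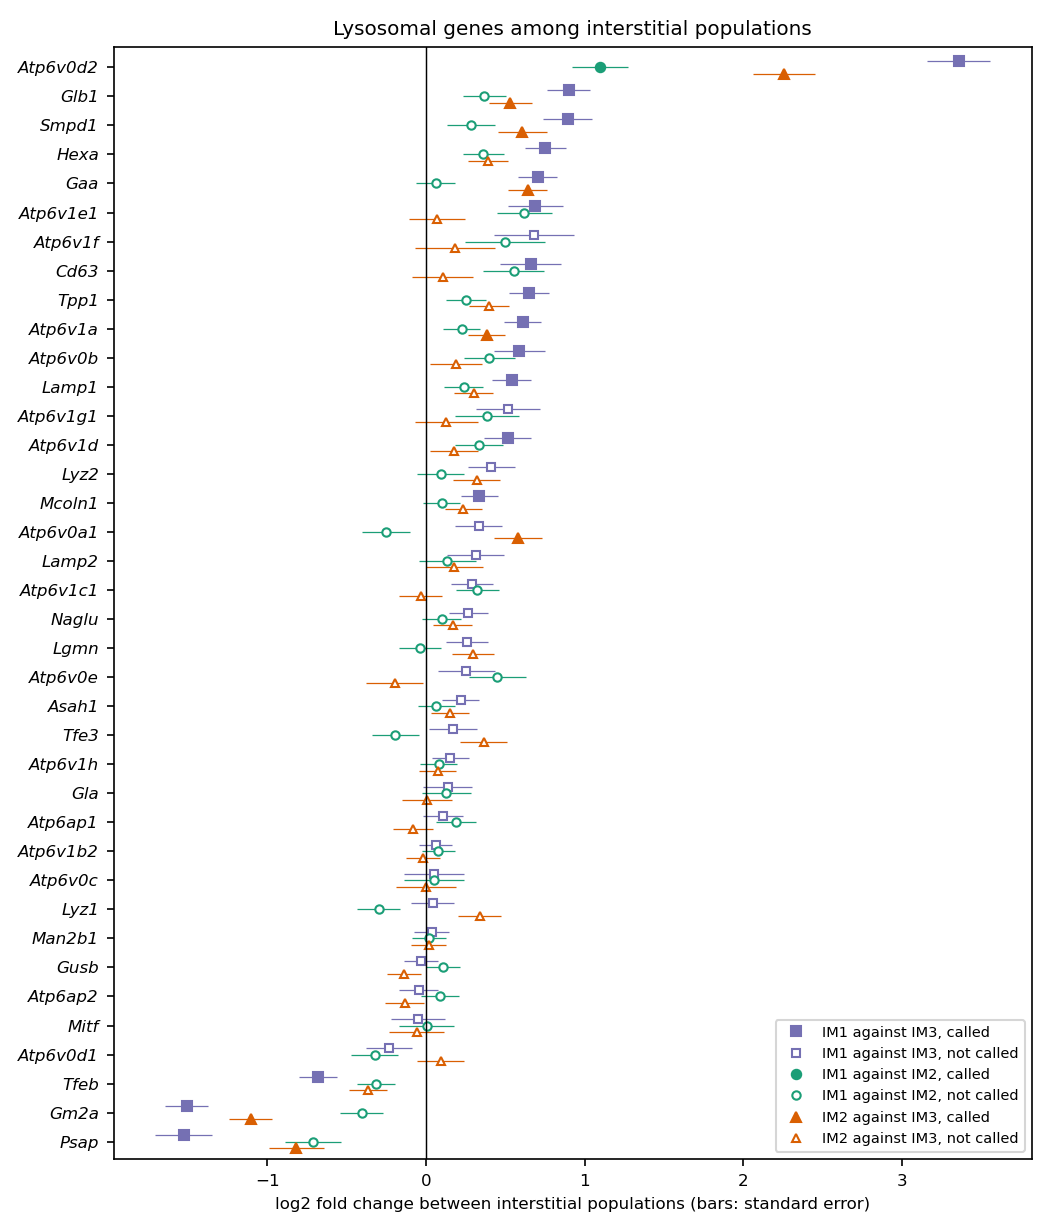
Log2 fold changes of the 38 genes for IM1 against IM3 (squares), IM1 against IM2 (circles) and IM2 against IM3 (triangles), ordered by IM1 against IM3, with bars for the standard error and filled symbols for genes called at an adjusted p under 0.05. Atp6v0d2 is called in all 3 pairs, and Psap and Gm2a lie farthest left.

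Atp6v0d2, with the levels given above, was the only one of the 38 genes called in all 3 pairs. It was higher in IM1 than in IM2 (1.098 ± 0.18, adjusted p = 0.00371), in IM1 than in IM3 (3.36 ± 0.20, adjusted p = 1.19e-08) and in IM2 than in IM3 (2.26 ± 0.20, adjusted p = 1.31e-06). Psap ran the other way: it was lower in IM1 than in IM3 (-1.53 ± 0.18, adjusted p = 1.29e-05) and in IM2 than in IM3 (-0.82 ± 0.18, adjusted p = 0.00535), and IM1 against IM2 missed the threshold (-0.71 ± 0.18, adjusted p = 0.0562, with 6.53e-06 to 0.184 over 19 alternatives). Gm2a was lower in IM1 than in IM3 (-1.51 ± 0.14, adjusted p = 9.18e-07) and in IM2 than in IM3 (-1.102 ± 0.14, adjusted p = 4.12e-05), and not called between IM1 and IM2 (adjusted p = 0.159). Tfeb was lower in IM1 than in IM3 (-0.68 ± 0.12, adjusted p = 0.000558), and its neighbours in that order did not pass the test (adjusted p = 0.201 for IM1 against IM2 and 0.0603 for IM2 against IM3).

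Several hydrolases ran the other way, with the highest level in IM1. Glb1 averaged 122 ± 11.8 CPM in IM1, 94.7 ± 8.51 in IM2 and 65.5 ± 8.01 in IM3 (SD, n = 3 each). It was higher in IM1 than in IM3 by 0.90 ± 0.14 and in IM2 than in IM3 by 0.53 ± 0.14 (adjusted p = 0.000159 and 0.0165). Smpd1 was higher in IM1 and in IM2 than in IM3, by 0.90 ± 0.16 and 0.61 ± 0.16 (adjusted p = 0.000531 and 0.0158), as was Gaa, by 0.70 ± 0.12 and 0.64 ± 0.12. Hexa averaged 1154 ± 161 CPM in IM1, 897 ± 115 in IM2 and 684 ± 12.5 in IM3 (SD, n = 3 each). It passed the test for IM1 against IM3 (0.75 ± 0.13, adjusted p = 0.000468). Tpp1 did so too (0.65 ± 0.13, adjusted p = 0.00132), and with the replicate block it was higher in IM2 than in IM3 (0.39, adjusted p = 0.0324, against 0.0532 without the block). Between IM1 and IM2 none of these 5 genes was called. For IM2 against IM3, the call of Smpd1 was lost without IM2 replicate C or IM3 replicate A or B (adjusted p = 0.106, 0.0872 and 0.0525), and that of Glb1 without IM2 replicate C or IM3 replicate C (0.0782 and 0.095).

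Pump and membrane genes added smaller steps. Atp6v1a, Atp6v1d, Atp6v1e1 and Atp6v0b were higher in IM1 than in IM3, by 0.61, 0.52, 0.69 and 0.59, and Lamp1, Cd63 and Mcoln1 by 0.54, 0.66 and 0.34. Without IM1 replicate A, Cd63 and Atp6v1d were no longer called (0.39 with adjusted p = 0.0693, and 0.36 with 0.0599), and both calls were also lost without any 1 of the IM3 libraries. The call of Mcoln1 was lost in 12 of 19 alternatives (adjusted p up to 0.175). Atp6v0a1 and Atp6v1a were higher in IM2 than in IM3, by 0.58 and 0.38, and the second of these was lost in 12 of 19 alternatives (adjusted p up to 0.175). The call of Atp6v0a1 was lost without IM2 replicate B or C or IM3 replicate A or B (adjusted p up to 0.0734), and that of Atp6v0b for IM1 against IM3 in 3 alternatives (up to 0.0664), among them without IM3 replicate B or C. Atp6v1b2, Gla, Man2b1 and Naglu, all called against AM, were called in no interstitial pair, with pair differences between -0.02 and 0.27 on the log2 scale. Lgmn was not called either (-0.04 to 0.30). Without IM1 replicate A, Naglu and Lgmn were higher in IM1 than in IM3 (0.36 and 0.35, adjusted p = 0.0283 and 0.045).

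The wider lysosomal gene lists were counted for the interstitial mean against AM, where 35.9% of all tested genes rose and 28.7% fell. Of 24 further membrane and transporter genes tested, 4 rose and 14 fell. Mcoln3, a relative of Mcoln1, fell by 7.44 ± 0.20, with 0.338 to 13.6 CPM in interstitial libraries and 534 to 598 in AM, and Laptm4b, a small membrane protein, fell by 1.69 ± 0.15. The cation channel Tpcn1 rose by 3.995 ± 0.20 (22.2 to 49.5 CPM in interstitial libraries and 1.33 to 2.60 in AM), and the nucleoside transporter Slc29a3 by 2.14.

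Of 30 further hydrolase and activator genes, 9 rose and 18 fell. Acp5, the tartrate-resistant acid phosphatase known from osteoclasts, fell by 3.61, with 20.4 to 68.0 CPM in interstitial libraries and 417 to 477 in AM, and Galns, a sulfatase, fell by 2.68. The sulfatase Sgsh rose by 4.16, with 17.8 to 41.9 CPM in interstitial libraries and 1.18 to 2.46 in AM. Plbd1, a phospholipase B-like protein, stood at 144 to 641 CPM in interstitial libraries and 0.14 to 0.442 in AM, near the level of 3 reads.

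Of 10 genes that sort enzymes to the lysosome, 1 rose and 7 fell. Sortilin (Sort1) fell by 6.33, with 4.18 to 22.2 CPM in interstitial libraries and 827 to 866 in AM, and Gnptab, which starts the mannose phosphate tag, by 1.18. Igf2r, a receptor for that tag, rose but stayed at 1.14 to 8.16 CPM in interstitial libraries and 0.0 to 0.631 in AM. Of 15 nutrient sensing genes, 3 rose and 7 fell. Beside Tfec, the small GTPase Rragd fell at low levels (0.332 to 1.398 CPM in interstitial libraries and 1.12 to 2.21 in AM), and Rptor and Fnip1 rose by 1.21 and 0.36. The median log2 fold change was -0.38, -0.40, -0.75 and -0.18 over the membrane, hydrolase, sorting and sensing lists, beside 0.10 over all genes.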

How the data were processed

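RNA of 12 sorted macrophage libraries was measured by SMART-Seq v4 and Ion Proton sequencing. The deposited values are whole-number read counts per Ensembl 78 gene from featureCounts v1.5.0-p1, unstranded and without multi-mapping reads, per the file headers. The submitters' processing notes name STAR 2.5.1b, Subread 1.5.0-p1, DESeq2 1.8.1, R 3.2.0 and mm10. Since strand was not used, reads of a gene and of an overlapping antisense gene cannot be told apart.

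Counts of 38 runs were summed into 12 libraries, and 0 columns lacked a sample. Symbols were found for 42462 of 43346 identifiers (98.0%), and 24692 had at least 1 count. The filterByExpr filter (minimum count 10) left 14095 genes. TMM scaling and edgeR 4.0.16 quasi-likelihood tests (R 4.3.3) were applied to all 12 libraries with population as the only term, for 7 comparisons, with Benjamini-Hochberg adjustment over all genes and calls at 0.05. TPM was computed from the counted gene length. Limits set by 3 counts cover counting error only. The method was tested on simulated counts. Alternatives were other scalings, no filter, a replicate block, DESeq2 1.42.0, limma 3.58.1 (voom), fits of the compared populations alone and leaving out each library.

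Deviations from the group means were correlated between libraries of the same letter. IM1 with IM2 gave 0.256, 0.166 and 0.292, and IM2 with IM3 gave 0.189, 0.143 and 0.163. These values lay above all those of unlike letters in the same 2 pairs of populations. The labels do not say what a letter stands for, so a pairing is not established. IM1 with IM3 and all pairs with AM gave -0.122 to 0.165 for the same letter, and unlike letters of IM1 and IM3 reached 0.156. The replicate block gave each letter a common effect in all populations, AM included, so it did not test single pairs of populations.

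The genes and lists were chosen with earlier results of these data known. Values by library are given for the genes with the highest and lowest interstitial fold change in each role and for the 3 largest calls in each interstitial pair. For wider lists the 2 highest and 2 lowest called genes are named, with any gene at 0 counts throughout a population. The values by library of Tfec and Tcirg1 were added after they were seen. Protein sequences were not used here.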

Additional observations from a re-analysis of the deposited data

Results flagged for a closer look

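Hexa, the alpha subunit of beta-hexosaminidase, stood out because it differed from AM in opposite directions in 2 interstitial populations. It was higher in IM1 than in AM (0.38 on the log2 scale, adjusted p = 0.0188) and lower in IM3 than in AM (-0.38, adjusted p = 0.0202). The IM1 call was lost without AM replicate A or C (adjusted p = 0.0631 and 0.0511). The IM3 call was lost without IM3 replicate A or C (0.0603 and 0.0557) or AM replicate B or C (0.0541 and 0.0508). The difference itself, IM1 against IM3, was tested and was 0.754 ± 0.13 (SE, adjusted p = 0.000468, edgeR's quasi-likelihood test), with all 3 IM1 libraries above all 3 IM3 libraries, and it was called in all 19 alternatives (adjusted p up to 0.00624). Of its annotated exonic bases, 12.8% lie in Tmem202 as well, and the part of that overlap in the result was not tested.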

How the results depend on the processing

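No listed gene called in the main analysis changed sign in any alternative. Of all 266 fold changes of listed genes, 39 changed sign in some alternative, and none of these was called in the main analysis. Of the listed genes called in the main analysis, 26 of 30 were called in every alternative for the interstitial mean against AM, 23 of 29 for IM1, 24 of 30 for IM2 and 23 of 28 for IM3 against AM, 12 of 16 for IM1 against IM3, 4 of 8 for IM2 against IM3 and 1 of 1 for IM1 against IM2. Genes higher in the interstitial mean numbered 5, and 8 with limma voom. For IM2 against AM, 7 were higher, 4 to 8 when single libraries were left out (4 without AM replicate B). For IM3 against AM, 5 were higher, with 3 to 6 (3 without IM3 replicate B or AM replicate A or B). For IM1 against IM2, 1 was higher, with 3 without the low-count filter, 2 with DESeq2 and 1 to 7 without single libraries (7 without IM1 replicate B), and 0 were lower, with 1 without the filter, 1 with the replicate block, 1 with DESeq2 and 0 to 2 without single libraries. For IM2 against IM3, 6 were higher, with 10 in the fit of these populations alone and 2 to 9 without single libraries (2 without IM2 replicate C, 3 without IM3 replicate A or B). The causes were not tested.

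Over all genes, IM1 against IM2 gave 69 higher and 172 lower. The counts were 325 and 616 without the filter, 117 and 275 with the replicate block, 212 and 353 with DESeq2, 31 and 62 with limma and 17 and 54 in the fit of the pair alone. They ranged over 27 to 718 and 83 to 1186 without single libraries, with the highest without IM1 replicate B. IM1 against IM3 gave 1790 and 1655, and 1185 and 1083 in the fit of the pair alone. IM2 against IM3 gave 696 lower, and 454 without IM2 replicate A. With the replicate block, Psap was called for IM1 against IM2 and Tpp1 for IM2 against IM3, and no other call of a listed gene changed in these comparisons.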

Other observations

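The wider lysosomal lists were also counted for IM1 against IM3, where 12.7% of all tested genes were higher and 11.7% lower in IM1. The genes named here were chosen after their values were seen. Of 24 membrane and transporter genes, 7 were higher and 3 lower in IM1, and of 30 hydrolase and activator genes, 10 were higher and 5 lower. Mcoln3 stood at 7.25 to 13.6 CPM in IM1 and 0.338 to 1.46 in IM3 (3.41 on the log2 scale), and its relative Mcoln2 at 11.5 to 14.1 in IM1 and 2.42 to 4.40 in IM3 (1.94). Hyal2, a hyaluronidase, stood at 37.8 to 56.3 CPM in IM1 and 12.8 to 15.4 in IM3 (1.67), and Sort1 was higher in IM1 by 1.75. Plbd1 ran the other way, at 144 to 147 CPM in IM1 and 583 to 641 in IM3 (-2.07), as did Naaa, an acid amidase, at 206 to 217 in IM1 and 399 to 413 in IM3 (-0.95). Of 15 nutrient sensing genes, 5 were higher and 2 lower in IM1, with Rragb lower by a log2 fold change of -2.04.

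Between IM1 and IM2 the wider lists held 2 calls among 84 tested genes (2.38%), near the 1.71% of all tested genes. These were Mcoln3 (1.87) and Plbd1 (-1.35). Of the 38 genes, 3 pairs are close neighbours in mm10. Besides the lysozymes these are Atp6v0a1 and Naglu on chromosome 11, with 6292 bases between them, and Smpd1 and Tpp1 on chromosome 7, with 186421 bases between them. Atp6v0a1 was not called in the interstitial mean while Naglu fell, and Smpd1 and Tpp1 were both higher in IM1 than in IM3 (0.90 and 0.65).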
